A study of Mus musculus with 89 samples.

Results

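Acute-phase proteins are plasma and tissue proteins whose production climbs quickly after injury or infection. The genes described here are 8 of them, taken by name: the serum amyloid A genes Saa3, Saa1 and Saa2, the iron-siderophore binder Lcn2, haptoglobin (Hp), the orosomucoids Orm1 and Orm2, and ceruloplasmin (Cp). They and the gene lists used below were chosen with earlier results of these data known. Counts of members or list genes beside the share of all genes are therefore descriptions, not independent tests. Each was read by its probe set with the highest mean over all 89 arrays. Of the 8 genes, 7 had a named probe set and 6 were tested, among 17097 named and 15065 tested genes. Orm1 had no probe set named for it alone and is not analysed here. Orm2 stood above the filter level (log2 4.45, the 40th percentile of all values) on 2 of 89 arrays, fewer than the 4 needed for a test.

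The study asked how lungs lacking surfactant protein D, a collectin that binds microbes and tempers inflammation in the airspaces, respond to ozone and to allergen. RNA came from perfused lungs of male mice aged 7 to 8 weeks of 3 kinds: wild-type C57BL/6, wild-type BALB/c, and SP-D-/- mice, in which the gene Sftpd is disrupted. Without allergen, groups were exposed for 2 h to air or to 3 ppm of ozone, and lungs were taken 12 h after the exposure. There were 6 C57BL/6, 5 SP-D-/- and 5 BALB/c arrays after air, and 6, 4 and 2 after ozone. The allergen groups received Aspergillus fumigatus (Af, a mould) intraperitoneally on day 0 and again on day 7, and intranasally on day 13. Their lungs were taken at 24 h after that challenge, with air (4 C57BL/6, 6 SP-D-/-, 5 BALB/c), at 96 h, with ozone (5, 6 and 6 arrays), or at 168 h, either with air (4, 5 and 6 arrays) or with ozone (6, 4 and 4 arrays). In these groups too the exposure to air or to 3 ppm of ozone lasted 2 h, and lungs were taken 12 h after it. The labels number the replicates but do not say that they are separate animals, so p-values measure the spread between these samples.

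In the classical acute-phase response, interleukin 6 and related cytokines act on hepatocytes through the receptor chain gp130 and STAT3, while interleukin 1 and tumour necrosis factor act through NF-kB, and C/EBP factors bind many of the target promoters. Saa1 and Saa2 are made mainly by the liver and travel on high-density lipoprotein, whereas mouse Saa3 is made mainly outside the liver, by macrophages, epithelium and fat. Lcn2 withholds iron from microbes, Hp binds free haemoglobin, the orosomucoids carry lipophilic ligands, and Cp oxidises iron for loading onto transferrin.

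The lung markers Sftpc, Ager and Scgb1a1, which mark alveolar type 2, alveolar type 1 and club cells, had group means from 12.10 to 12.80, from 11.04 to 12.10 and from 11.81 to 13.18 on the log2 scale. On 6 of 89 arrays, the level of Sftpd or an index of strain-specific genes went against the label: replicates 4 and 5 of BALB/c Af 24 h, replicate 6 of BALB/c Af 168 h with ozone, replicate 1 of C57BL/6 Af 96 h with ozone, replicate 5 of C57BL/6 Af 168 h with ozone and replicate 1 of SP-D-/- Af 96 h with ozone. The fifth of these lay at the threshold, with an index of 0.0153 on a scale where C57BL/6 is -1 and BALB/c is 1. These are called the arrays of doubted strain. For replicates 4 and 5 of BALB/c Af 24 h, only Sftpd went against the label, at 8.79 and 7.68. Their strain index, 0.17 and 0.56, was nearer to that of BALB/c than to that of C57BL/6. Among the arrays of that group the lowest Sftpc was 10.19, the lowest Ager 9.81 and the lowest Scgb1a1 9.82. The cause of the low Sftpd was not tested, so for these replicates the name is a label only. Hepatocyte markers (11 measured) averaged 8.15 and 8.79 on replicates 3 and 4 of SP-D-/- air and 6.37 and 6.42 on replicates 4 and 6 of C57BL/6 ozone, against 5.68 or less on every other array. Their part in the results was not tested beyond leaving these arrays out, and results that changed call without them, or without the arrays of doubted strain, are given with that value. In bulk lung, fewer cells of a type and less RNA per cell cannot be told apart.

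The 3 serum amyloid A genes lie within one stretch of mouse chromosome 7 (GRCm38): Saa3 at chr7:46711998-46719615, Saa1 at chr7:46740497-46743181 and Saa2 at chr7:46751833-46754313. Their promoters are shown because Saa1 and Saa2 gave nearly the same pattern over the group means (r = 0.928), which Saa3 followed less closely (r = 0.617 with Saa1 and 0.523 with Saa2). Any part of the sequences in these patterns was not tested. Each line holds the 250 bases before the RefSeq start (GRCm38.p6), with a C/EBP motif in capitals. For Saa3 and Saa1 that start lies inside the gene bounds given above, so their windows fall within or across those bounds, while for Saa2 it is the first base of them.
Saa3, chr7:46715677-46715926, minus strand: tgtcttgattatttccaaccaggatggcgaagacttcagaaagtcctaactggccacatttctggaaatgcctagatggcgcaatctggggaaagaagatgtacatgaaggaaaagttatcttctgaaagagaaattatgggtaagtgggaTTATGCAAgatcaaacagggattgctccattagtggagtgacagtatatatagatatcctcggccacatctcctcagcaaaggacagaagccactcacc
Saa1, chr7:46742981-46743230, minus strand: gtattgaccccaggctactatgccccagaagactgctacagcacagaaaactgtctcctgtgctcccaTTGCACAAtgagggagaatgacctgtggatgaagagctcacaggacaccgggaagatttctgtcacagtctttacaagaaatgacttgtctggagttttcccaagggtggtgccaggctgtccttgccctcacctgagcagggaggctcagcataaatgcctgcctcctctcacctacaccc
Saa2, chr7:46751583-46751832, plus strand: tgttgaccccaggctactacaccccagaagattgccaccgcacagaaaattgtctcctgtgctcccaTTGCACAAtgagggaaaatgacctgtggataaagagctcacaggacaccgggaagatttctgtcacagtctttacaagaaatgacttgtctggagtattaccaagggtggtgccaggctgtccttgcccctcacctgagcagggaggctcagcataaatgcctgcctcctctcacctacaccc

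The Saa1 and Saa2 windows were identical at 238 of 251 aligned positions (94.8%), and the Saa3 window matched them at 50.2% and 50.6%. The C/EBP motif searched was TTNNGCAA on both strands. It stood 99 to 92 bases before the start of Saa3, 182 to 175 before Saa1 and 183 to 176 before Saa2. Of the 6 genes with a promoter entry, Lcn2 (216 to 209 bases), Orm2 (120 to 113) and the second of the Cp entries (70 to 63) also held it, as did 9.56% of all 32851 promoter entries. The STAT motif TTCNNNGAA (7.02% of all entries) was in none of the members' windows. Nor was the NF-kB form searched, GGGRNWYYCC on both strands (3.9% of all entries), where R is A or G, W is A or T and Y is C or T. Looser NF-kB forms were not searched, so the windows may hold sites of those forms. Saa1 and Saa2 are also close in their transcripts, and their probe sets may share signal.

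Saa3 was lowest in air-exposed wild-type lungs and was 2.43 to 4.81 log2 units higher in them after ozone or after Af with air. In C57BL/6 air, Saa3 ran from 4.05 to 6.43 with a median of 4.77, and the mean was 4.98 ± 0.79 (SD, n = 6). In BALB/c air the 5 arrays read 7.03, 6.04, 5.88, 5.28 and 6.09 (mean 6.06 ± 0.63, SD, n = 5). In SP-D-/- air they read 6.71, 8.51, 8.30, 8.74 and 9.19, with a mean of 8.29 ± 0.94 (SD, n = 5). All 5 SP-D-/- arrays were above all 6 C57BL/6 arrays, although the lowest of them, replicate 2, was close to the highest C57BL/6 array. The difference in air was 3.31 ± 0.52 (SE), or 9.93-fold, with an adjusted p of 7.67e-05. It was 1 of 6 tested members called, where 0.0664% of all genes were called in this comparison. Saa1 and Saa2 also had all SP-D-/- air arrays above all C57BL/6 ones, by 0.91 ± 0.35 and 1.48 ± 0.56, but were not called (adjusted p = 1.0 for both), and such separation held for 1.19% of all genes. A second Saa2 probe set, not the one used, had overlapping arrays in air, at 3.60 to 4.59 in C57BL/6 and 4.11 to 4.69 in SP-D-/-. Saa3 was 3.23 higher without the arrays of high hepatocyte markers (adjusted p = 0.00733), and the 3 SP-D-/- air arrays with hepatocyte means of 4.32 or less read 6.71, 8.74 and 9.19. BALB/c air exceeded C57BL/6 air by 1.08 ± 0.52, which was not called (adjusted p = 1.0).

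**Figure D1:**
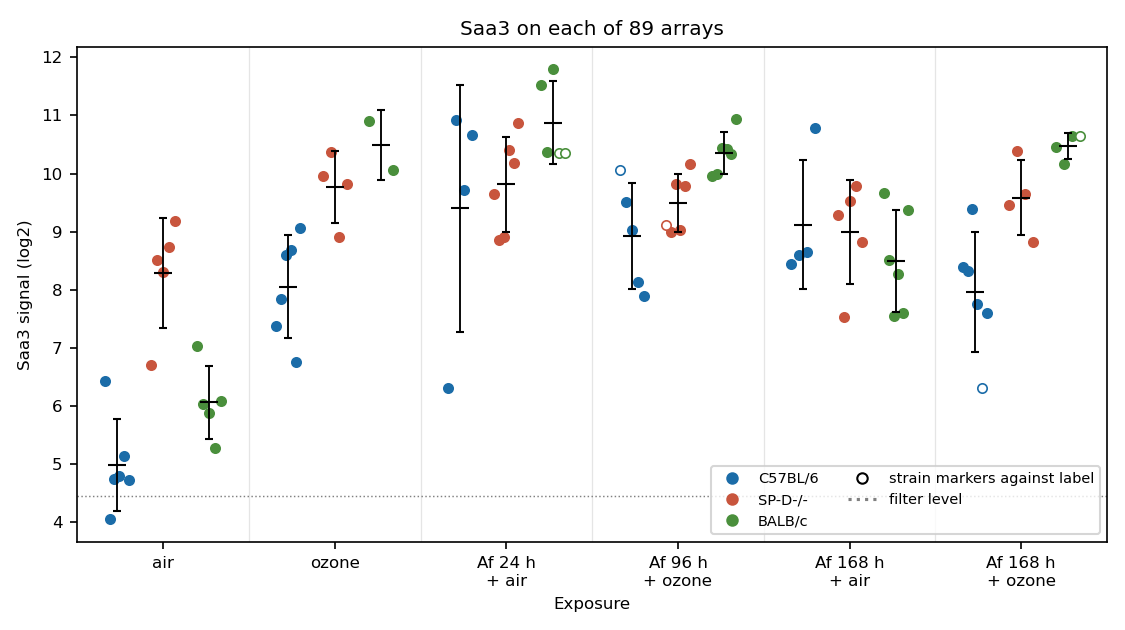
Saa3 signal (log2, vertical axis) on each of 89 arrays, grouped by exposure and coloured by strain, with black bars for the group mean and SD. Open points are the arrays of doubted strain and the dotted line is the filter level of 4.45; air-exposed C57BL/6 and BALB/c lungs sit lowest, with means of 4.98 and 6.06.

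Ranked by mean, the 18 groups ran from C57BL/6 air at 4.98 and BALB/c air at 6.06 to C57BL/6 Af 168 h with ozone at 7.96, and on to BALB/c Af 24 h at 10.88. The steps of 1.08 and 1.90 above the 2 lowest groups were larger than the SD of either neighbour. No later step was, so neighbours in the rest of the order did not differ beyond their spread, although groups further apart could. SP-D-/- means spanned 8.29 in air to 9.81 at Af 24 h, the narrowest range of the 3 strains.

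After ozone alone, Saa3 rose in both wild-type strains, and it was the only member called. In C57BL/6 the arrays ran from 6.76 to 9.07 with a median of 8.23, all above the air arrays. The rise was 3.07 ± 0.50 (SE), or 8.43-fold, with an adjusted p of 0.000295. In BALB/c both ozone arrays, at 10.91 and 10.07, were above all air arrays, and the rise was 4.43 ± 0.72, or 21.5-fold (adjusted p = 0.000276). Called genes made up 0.0266% of all tested genes in C57BL/6 and 0.0133% in BALB/c. In SP-D-/- the 4 ozone arrays read 9.97, 10.37, 8.90 and 9.82, overlapping air, and the difference of 1.47 (95% interval 0.32 to 2.63) was not called (adjusted p = 0.208, with 0.0996% of genes called). The C57BL/6 call was lost without the arrays of high hepatocyte markers (2.66, adjusted p = 0.078), and the BALB/c call without replicate 1 of ozone (4.002, adjusted p = 0.257), a fit that leaves 1 ozone array and assumes that it varies like the other groups.

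The liver-type pair was also higher on ozone arrays of the wild-type strains, without passing the test. Saa2 in C57BL/6 read 3.11 to 3.90 in air (median 3.44) and 4.04 to 8.11 after ozone (median 5.71). All ozone arrays were above all air arrays, and the difference was 2.24 ± 0.54 (adjusted p = 0.147). The 3 highest, replicates 4, 6 and 3 at 8.11, 6.31 and 6.11, included both C57BL/6 arrays with high hepatocyte markers. On the second Saa2 probe set the C57BL/6 arrays overlapped (3.60 to 4.59 in air, 4.37 to 5.84 after ozone). The BALB/c arrays of that set did not (3.69 to 4.53 in air, 5.07 to 5.30 after ozone). In BALB/c, Saa2 was 3.65, 4.21, 3.42, 4.15 and 4.11 in air and 6.74 and 5.88 after ozone, a difference of 2.40 ± 0.78 (adjusted p = 1.0). Saa1 was 1.18 ± 0.33 higher in C57BL/6 (adjusted p = 0.57) and 1.27 ± 0.49 higher in BALB/c (adjusted p = 1.0), from group means of 2.67 and 2.81 in air, below the filter level. Lcn2 in C57BL/6 read 8.57 to 9.51 in air (median 9.23) and 10.42 to 11.07 after ozone (median 10.73), a difference of 1.53 ± 0.59 that was not called (adjusted p = 1.0). Groups did not overlap, with ozone higher, for 3 of 6 members in C57BL/6 and 4 of 6 in BALB/c, against 0.923% and 6.67% of all genes. The median over the 6 tested members was 1.35 in C57BL/6, -0.16 in SP-D-/- and 1.23 in BALB/c, beside 0.02, -0.08 and -0.02 over all genes.

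At 24 h after Af, Saa3 rose in both wild-type strains, Saa1 and Saa2 rose in C57BL/6, and Hp fell in every strain. These comparisons share their air arrays with those for ozone alone. Saa3 in C57BL/6 read 6.31, 10.93, 9.71 and 10.66, of which replicate 1 lay within the air range. The rise was 4.42 ± 0.56, or 21.4-fold (adjusted p = 7.32e-08), and 5.45 without that replicate. In BALB/c the arrays read 11.53, 10.36, 11.79, 10.35 and 10.35, all above air, and the rise was 4.81 ± 0.55, or 28.1-fold (adjusted p = 2.27e-09). In SP-D-/- they ran from 8.86 to 10.87 with a median of 9.91, overlapping air, and the difference of 1.52 (95% interval 0.48 to 2.56) missed the threshold (adjusted p = 0.0786). That last difference passed it with cyclic loess normalization (1.58, adjusted p = 0.0372), with the spike-in level as a covariate (1.82, adjusted p = 0.0117) and without either of 2 single arrays. Genes called made up 16.2% of those tested in C57BL/6, 4.71% in SP-D-/- and 12.1% in BALB/c, beside 4, 1 and 2 of 6 members.

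Saa2 in C57BL/6 at Af 24 h read 4.49, 7.14, 4.82 and 4.77, all above air. Its rise was 1.82 ± 0.60 (adjusted p = 0.0292), lost without replicate 3 (1.21, adjusted p = 0.142) or replicate 6 of air (1.74, adjusted p = 0.0519). Saa1 read 3.75, 5.24, 3.29 and 4.19 and rose by 1.44 ± 0.37 (adjusted p = 0.00632). Of these arrays 3 of 4, and all 6 air arrays, lay below the filter level, which Saa1 passed on 7 of 89 arrays. The second Saa2 probe set followed the one used with r = 0.474 over the 89 arrays. In C57BL/6 it had means of 3.94 in air and 4.45 at Af 24 h, with overlapping arrays (3.60 to 4.59 and 4.04 to 4.90). With both probe sets averaged, the Saa2 rise was 1.16 ± 0.36 (adjusted p = 0.021). Saa1 and Saa2 were both highest on the same array, replicate 3, which also had the highest Saa3. In BALB/c, Saa2 read 6.85, 4.61, 6.66, 3.69 and 3.89, of which the last 2 are the arrays of doubted strain. The Saa2 difference there was 1.23 ± 0.59 (adjusted p = 0.154) and 2.13 without them (adjusted p = 0.0322). For Saa1 it was 0.90 ± 0.37 (adjusted p = 0.0934) and 1.30 without them (adjusted p = 0.0395). In SP-D-/- the differences were 0.26 for Saa2 (95% interval -0.86 to 1.38) and -0.02 for Saa1 (95% interval -0.72 to 0.68), and neither was called.

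**Figure D2:**
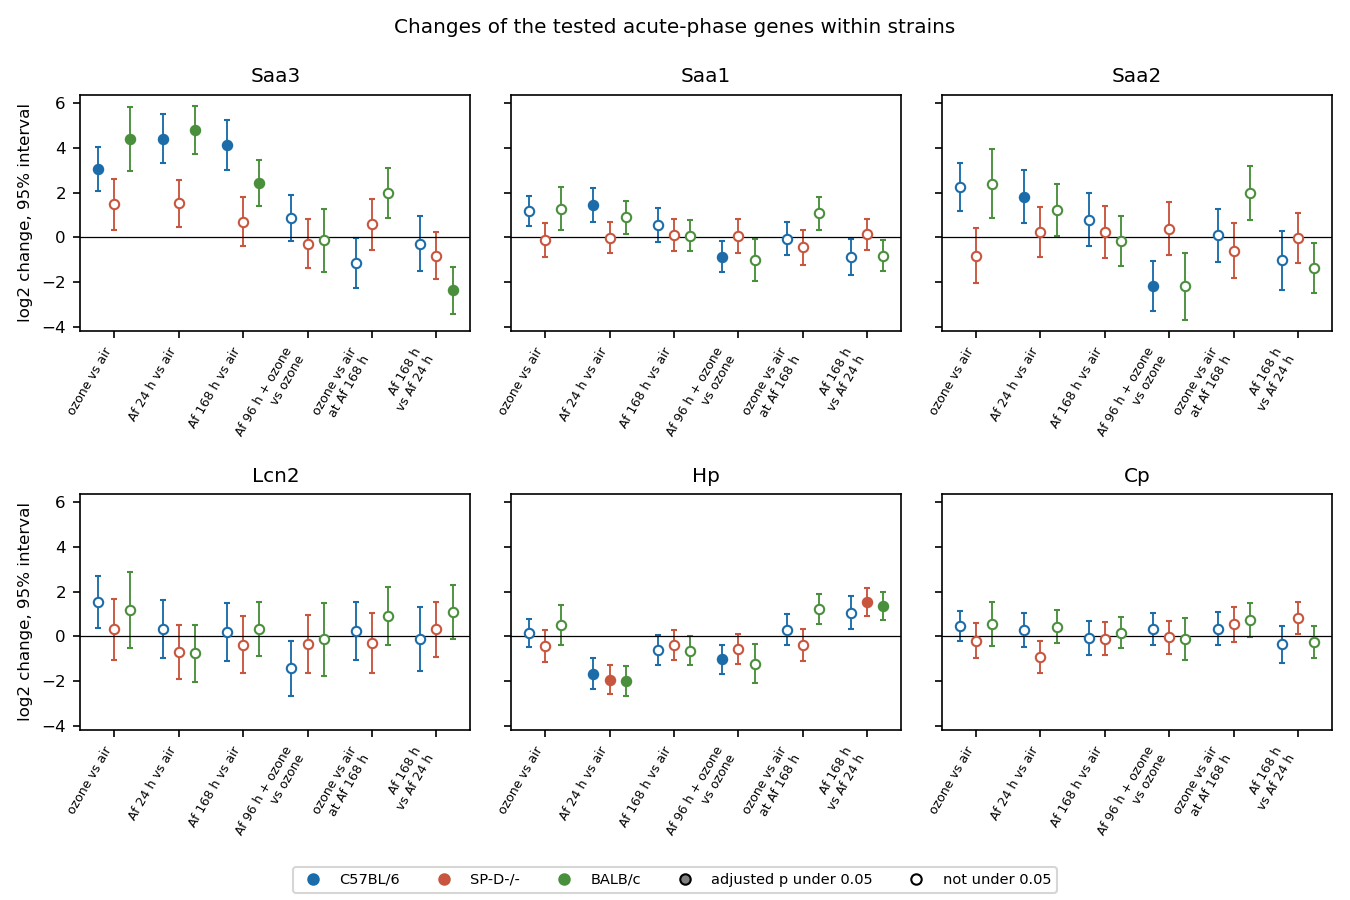
Log2 change (vertical axis) with its 95% interval for each of the 6 tested members in 6 comparisons within each strain, from limma. Filled points had an adjusted p under 0.05; the filled Saa3 points above 0 are in C57BL/6 and BALB/c, and the Hp points at Af 24 h are filled below 0 in all 3 strains.

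Hp, by contrast, was lower at Af 24 h. In air it read 11.03 to 11.66 in C57BL/6 (median 11.40), 11.31, 11.62, 11.84, 12.07 and 11.93 in SP-D-/-, and 11.08, 11.11, 10.95, 11.02 and 11.42 in BALB/c. At Af 24 h it read 9.56, 10.12, 9.66 and 9.59 in C57BL/6. In SP-D-/- it ran from 8.81 to 10.79 (median 10.0011), and in BALB/c it read 9.77, 9.96, 9.78, 9.24 and 6.83. Every Af 24 h array was below every air array of its strain. Hp fell by 1.67 ± 0.34 in C57BL/6 (adjusted p = 0.000563), by 1.94 ± 0.32 in SP-D-/- (adjusted p = 6.21e-05) and by 2.00 ± 0.34 in BALB/c (adjusted p = 3.3e-05). The groups did not overlap, with Af lower, for 8.7%, 6.15% and 7.25% of all genes in C57BL/6, SP-D-/- and BALB/c. The lowest BALB/c array, 6.83, is one of doubted strain, and the fall there was 1.28 without both (adjusted p = 0.00737). It was -0.80 and not called with the spike-in level and actin difference also held as covariates (adjusted p = 0.13), a setting under which the C57BL/6 and SP-D-/- falls kept their calls at -1.07 and -1.59.

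Beside Hp, genes of club and secretory cells, the airway cells that make secretoglobins, fell at Af 24 h: 4 of 8 in C57BL/6, 6 in SP-D-/- and 7 in BALB/c, where 9.78%, 3.11% and 8.13% of all genes fell. Without the arrays of high hepatocyte markers 3 of 8 fell in SP-D-/-, and without those of doubted strain 5 of 8 fell in BALB/c. Over the 18 group means, Hp followed the mean of these 8 genes with r = 0.878, given as a description. The genes whose group means were most like those of Hp were Cckar (r = 0.921), Selenbp1 (0.917), Cyp2f2 (0.903), Scgb1a1 (0.893) and Ces1d (0.891), of which Cyp2f2 and Scgb1a1 belong to that list. The hepatocyte markers, at a group mean of 4.10 in SP-D-/- Af 24 h against 5.89 in air, fell for 7 of 10 tested genes in SP-D-/- and for 1 in each wild-type strain. Without the air arrays of high hepatocyte markers, 0 of 10 fell in SP-D-/-. Without the arrays of high hepatocyte markers the Hp difference in SP-D-/- was at -1.95 (adjusted p = 0.00281). The part of the airway cells in the Hp values was not tested.

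**Figure D3:**
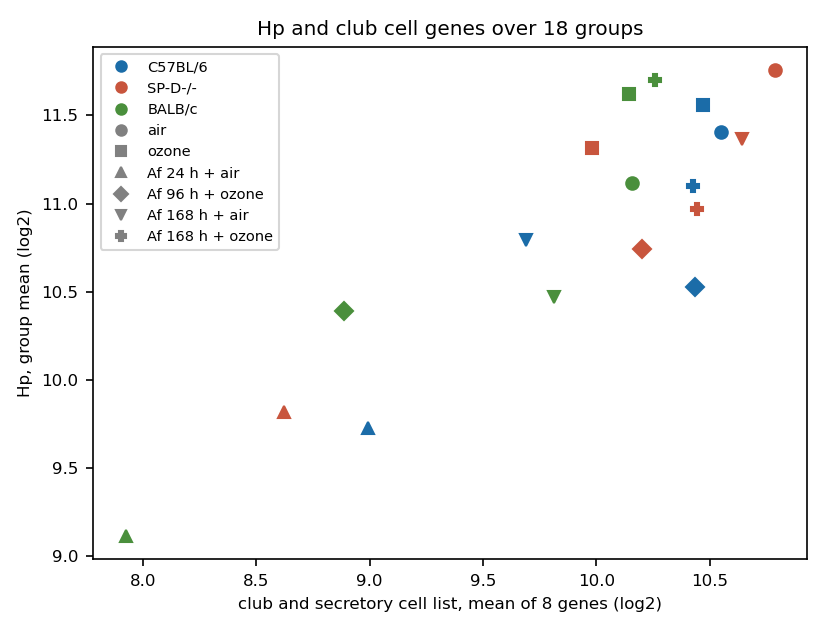
Mean Hp signal of each of the 18 groups (log2, vertical axis) against the mean of 8 club and secretory cell genes (log2, horizontal axis), with colour for strain and shape for exposure. The 3 groups sampled 24 h after Af have the lowest Hp means, and are 3 of the 4 lowest on the horizontal axis; r over the 18 points was 0.878.

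Lcn2 and Cp were called in no comparison. At Af 24 h, Lcn2 in C57BL/6 read 6.54, 11.37, 9.78 and 10.38, and the low array, replicate 1, was also the low one for Saa3. That array had the highest spike-in level (12.30) and actin difference (3.32) of its group. Its strain index was -0.21, beside -0.92 to -0.79 on the other arrays of the group. The cause of its low values was not tested. In BALB/c, Lcn2 read 10.38, 10.38, 10.01, 5.61 and 3.85, where the last 2 are the arrays of doubted strain. The BALB/c difference was -0.76 ± 0.64 (adjusted p = 0.435), and it turned to 1.45 without them (adjusted p = 0.0953). Cp in SP-D-/- read 8.87, 8.98, 9.01, 9.34 and 9.34 in air and 7.62 to 8.80 at Af 24 h (median 8.15). All Af arrays were lower, but the difference of -0.93 ± 0.36 was not called (adjusted p = 0.126), while without the arrays of doubted strain, none of which belongs to these groups, it was (adjusted p = 0.0101). Over all 18 groups, Cp means lay between 8.14 and 9.54. The second Cp probe set stayed below the filter level on all but 1 array and was not used.

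**Figure D4:**
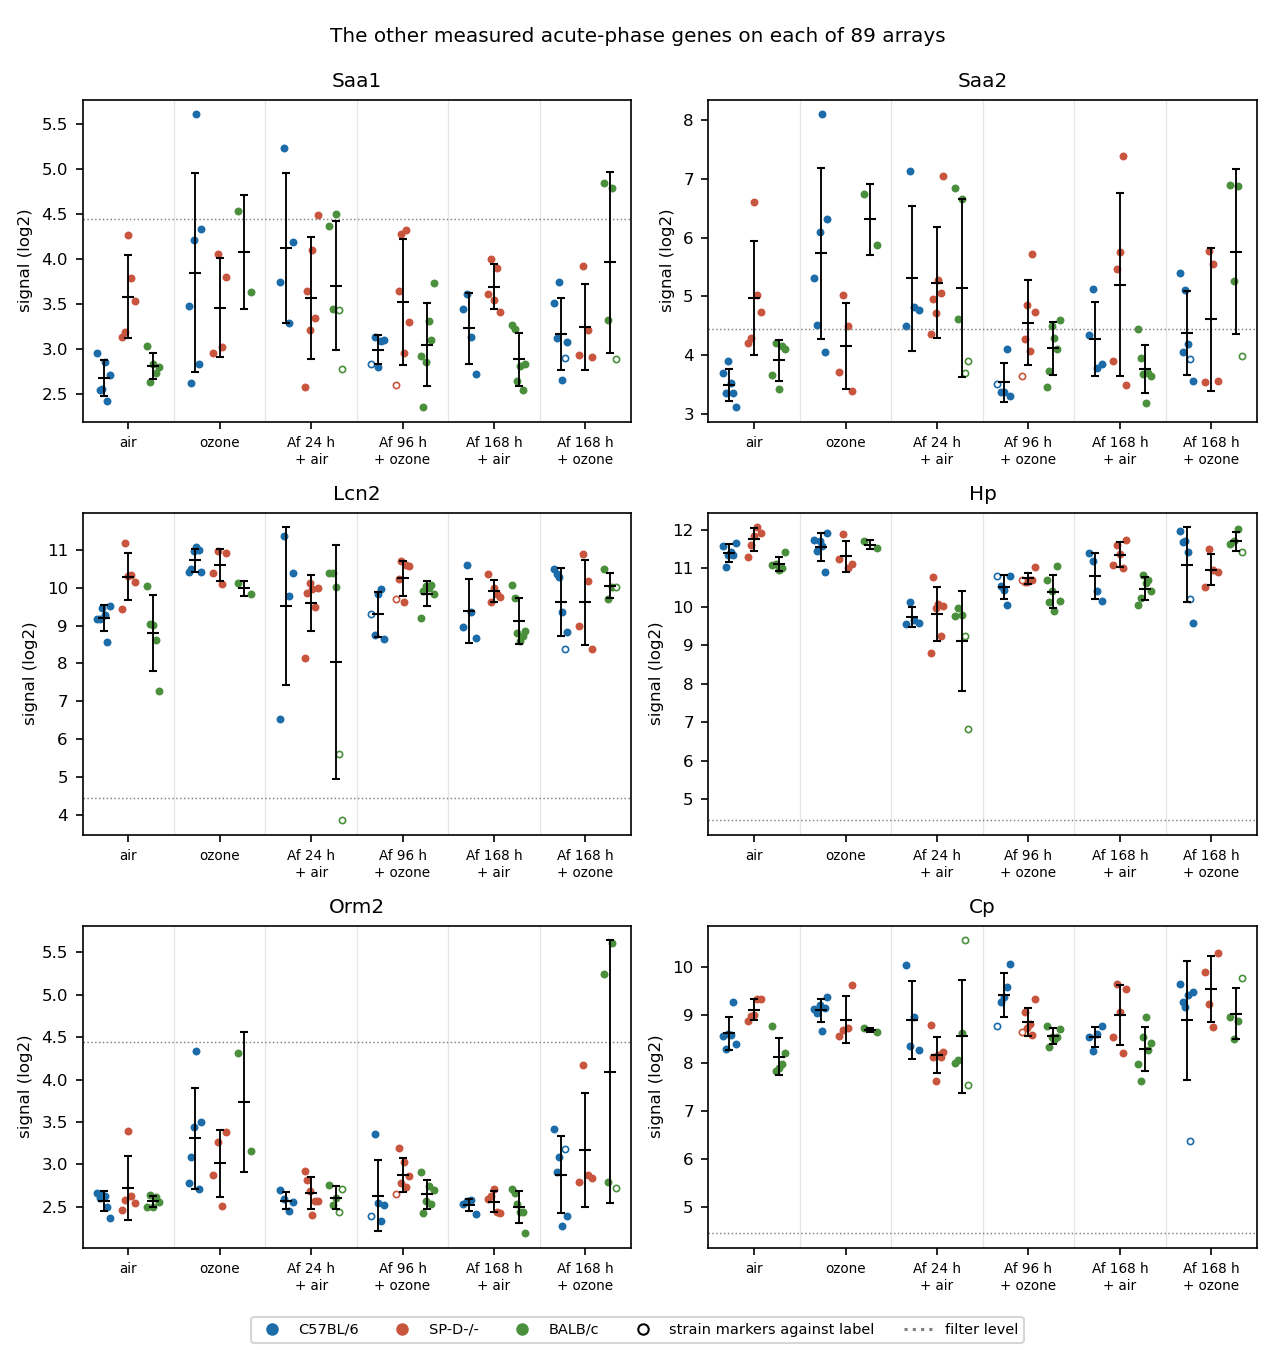
Signal (log2, vertical axes, which differ between panels) of Saa1, Saa2, Lcn2, Hp, Orm2 and Cp on each of 89 arrays, by exposure and strain, with black bars for the group mean and SD and open points for the arrays of doubted strain. Saa1 and Orm2 lie mostly below the dotted filter level of 4.45, and Hp is lowest at Af 24 h.

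At 168 h after Af with air, Saa3 was the only member called. In C57BL/6 it read 8.45, 8.60, 8.65 and 10.79, all above air, and the rise was 4.14 ± 0.56, or 17.6-fold (adjusted p = 1.01e-06). In BALB/c it ran from 7.55 to 9.67 with a median of 8.39, all above air, and the rise was 2.43 ± 0.52, or 5.39-fold (adjusted p = 0.00479). In SP-D-/- it read 9.29, 7.54, 9.53, 9.78 and 8.82, and the difference of 0.70 (95% interval -0.39 to 1.79) was not called (adjusted p = 0.543). Called genes were 1.35%, 1.35% and 1.56% of all genes in C57BL/6, SP-D-/- and BALB/c. Hp in BALB/c ran from 10.04 to 10.83 (median 10.51), below all air arrays, and its difference of -0.65 ± 0.32 was not called (adjusted p = 0.331).

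Between 24 h and 168 h after Af with air, Hp was higher at the later time in every strain. Its rise was 1.54 ± 0.32 in SP-D-/- (adjusted p = 0.00173) and 1.35 ± 0.32 in BALB/c (adjusted p = 0.00655), while 1.06 ± 0.37 in C57BL/6 was not called (adjusted p = 0.174). The BALB/c value was 0.63 without the arrays of doubted strain (adjusted p = 0.351) and 0.78 without replicate 5 of Af 24 h alone (adjusted p = 0.12). Of the club and secretory genes, 5 of 8 rose in SP-D-/- and 5 in BALB/c over the same interval, beside 1.19% and 2.75% of all genes, and 3 rose in BALB/c without the arrays of doubted strain. Saa3 fell by 2.38 ± 0.52 in BALB/c, a 5.21-fold lower level (adjusted p = 0.00312), with all late arrays below all early ones. Fitted on only the groups compared, that fall was not called (adjusted p = 0.071). It differed by -0.28 ± 0.61 in C57BL/6 and by -0.82 ± 0.52 in SP-D-/-, neither called. Genes called made up 0.186% in C57BL/6, 1.36% in SP-D-/- and 4.36% in BALB/c.

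Ozone at 168 h after Af was compared with air at the same time, and no member was called in any strain. limma called 0.0597%, 0.604% and 0.0199% of all genes in C57BL/6, SP-D-/- and BALB/c, and 15.9%, 16.7% and 7.88% had an unadjusted p under 0.05. In BALB/c, Saa3 read 10.46, 10.17, 10.65 and 10.64, above every Af 168 h array with air, a difference of 1.99 ± 0.56 (adjusted p = 0.211). Hp there read 11.64, 11.70, 12.02 and 11.44, also above all of them, a difference of 1.23 ± 0.34 (adjusted p = 0.208). Groups with ozone higher did not overlap for 1.96% of all genes in BALB/c. In C57BL/6, Saa3 ran from 6.31 to 9.39 (median 8.03) and differed by -1.16 ± 0.56 (adjusted p = 0.3). Orm2, an orosomucoid of the liver, reached 5.25 and 5.61 on replicates 3 and 5 of BALB/c with ozone at this time, its only values above the filter level, against 2.79 and 2.71 on the other 2 arrays. The same 2 arrays had the highest Saa2 of that group, at 6.89 each beside 5.26 and 3.99. Elsewhere the highest Orm2 values were 4.33 on replicate 4 of C57BL/6 ozone, 4.32 on replicate 1 of BALB/c ozone and 4.17 on replicate 3 of SP-D-/- Af 168 h with ozone.

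At 96 h after Af with ozone, set against ozone alone, 3 members fell in C57BL/6 and none was called in the other strains. This is the comparison with the most calls in C57BL/6, at 36.4% of all genes (19.2% lower), against 2.58% in SP-D-/- and 0.0531% in BALB/c. Saa2 read 3.51, 3.37, 3.37, 4.11 and 3.30 and differed by -2.20 ± 0.56 (adjusted p = 0.00205). Saa1 differed by -0.86 ± 0.35 (adjusted p = 0.0472) and Hp by -1.03 ± 0.32 (adjusted p = 0.0101). Lcn2, at 9.30, 8.76, 9.83, 9.96 and 8.64, lay below all ozone arrays and differed by -1.43 ± 0.61 (adjusted p = 0.0589). Saa3 read 10.07, 9.51, 9.02, 8.13 and 7.89 there, and its difference of 0.87 was not called (adjusted p = 0.18). The spike-in controls averaged 11.80 at Af 96 h with ozone and 10.19 after ozone alone in C57BL/6, the highest and lowest of the 18 groups. With their level as a covariate, only Saa3 among the members was called in C57BL/6 (1.74, adjusted p = 0.0146), and Saa2, Saa1 and Hp were at -0.93, -0.15 and -0.55. None of the 3 falls was called without the arrays of high hepatocyte markers, where Saa2, Saa1 and Hp were at -1.46, -0.30 and -0.93. The Saa1 call was also lost without any one of 8 arrays, with adjusted p up to 0.247.

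**Figure D5:**
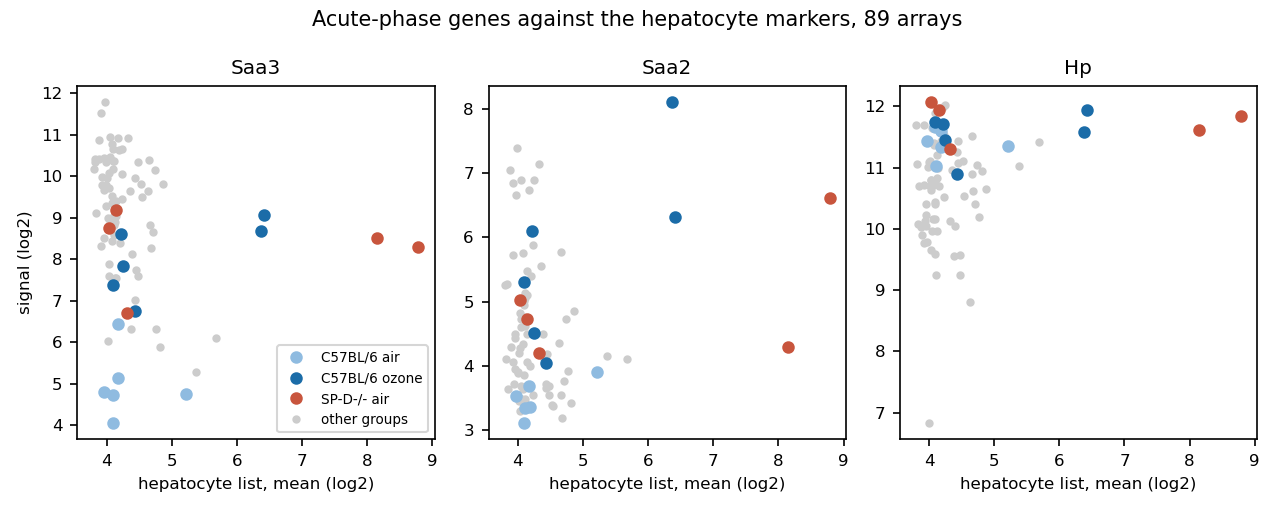
Signal (log2, vertical axes) of Saa3, Saa2 and Hp on each of 89 arrays against the mean of 11 hepatocyte markers (log2, horizontal axis). Coloured points are C57BL/6 air, C57BL/6 ozone and SP-D-/- air; the arrays with hepatocyte means of 8.15 and 8.79 are SP-D-/- air, and those with 6.37 and 6.42 are C57BL/6 ozone.

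Strain differences in the responses themselves were tested for each exposure, and 1 was called among the members. The Saa3 response in SP-D-/- differed from that in C57BL/6 by -1.60 ± 0.76 after ozone (adjusted p = 0.635), by -2.90 ± 0.76 at Af 24 h (adjusted p = 0.916) and by -3.44 ± 0.78 at Af 168 h (adjusted p = 0.158). None of these Saa3 differences was called, in comparisons where limma called 0.0%, 0.0% and 0.00664% of all genes, and 7.68%, 3.74% and 2.04% had an unadjusted p under 0.05. With so few genes called, a missing call does not show that the Saa3 responses were alike. All 3 Saa3 differences share the air arrays in which SP-D-/- lungs already had more Saa3. The called one was Saa2 at Af 96 h with ozone, where the SP-D-/- response exceeded the C57BL/6 response by 2.59 ± 0.82 (adjusted p = 0.018), beside 27.4% of all genes called. It was 1.85 without the arrays of high hepatocyte markers (adjusted p = 0.0934), 0.83 with the spike-in level as a covariate (adjusted p = 0.761) and 2.34 without replicate 5 of SP-D-/- ozone (adjusted p = 0.0621).

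Under a given exposure, Saa3 was higher in BALB/c than in C57BL/6 at Af 168 h with ozone, by 2.52 ± 0.56 or 5.72-fold (adjusted p = 0.0296), with 0.139% of all genes called. The BALB/c arrays were all above the C57BL/6 arrays, which read 8.40, 8.32, 9.39, 7.75, 6.31 and 7.61. The call was lost without any one of 7 arrays, and without the arrays of doubted strain the difference was 2.13 (adjusted p = 0.201). After ozone alone the BALB/c excess was 2.43 ± 0.70 (adjusted p = 0.262) and that of SP-D-/- was 1.71 ± 0.56 (adjusted p = 0.107). With an adjusted p of 0.809 at Af 24 h, SP-D-/- and C57BL/6 differed in Saa3 by 0.41 (95% interval -0.70 to 1.52).

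Within groups, arrays with high Saa1 had high Saa2. Over the 89 arrays, after taking out group means, 27 relations were computed among the 6 tested members and 2 quality measures, with p from 100000 permutations. Saa1 with Saa2 gave r = 0.796 and rho = 0.761 (permutation p = 1e-05 for each, the smallest these permutations can give, adjusted 6e-05). Leaving out the pair of arrays most distant from the median (2 arrays) gave 0.758, and r was 0.711 with the quality measures held. Saa3 with Lcn2 gave r = 0.459 and rho = 0.443 (permutation p = 0.00019 and 0.00022, adjusted 0.000684 and 0.000742), 0.347 without the 2 farthest arrays and 0.331 with the quality measures held. Saa3 with Hp gave r = 0.195 and rho = 0.190 (permutation p = 0.0938 and 0.107, adjusted 0.13 and 0.141), and 0.154 without the 2 farthest. The spike-in level moved with every member tested. Its r was -0.430 with Lcn2 and -0.390 with Hp (rho -0.511 and -0.424, adjusted permutation p for r 0.000245 and 0.00274, and r -0.489 and -0.458 without the 2 farthest arrays), and 0.297, the other way, with Cp (rho 0.374, adjusted permutation p 0.0287, and 0.420 without them). For the serum amyloids r was -0.431 with Saa3, -0.527 with Saa1 and -0.578 with Saa2 (adjusted permutation p 0.000953, 6e-05 and 6e-05), with rho of -0.377, -0.540 and -0.592, and without the 2 farthest arrays r was -0.383, -0.519 and -0.615. Over the 18 group means, the genes most like Saa3 were Noc4l (r = 0.845), G3bp1 (0.820), Rexo2 (0.820), Ccdc9 (0.807) and Smg5 (0.807). Saa1 was most like Saa2 (0.928), Timp1 (0.774) and Cxcl5 (0.769), and Lcn2 was most like Cd14 (0.838), the endotoxin co-receptor.

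In the fit to all arrays, most of the tested cytokines that induce acute-phase genes rose at Af 24 h with air in the wild-type strains. After ozone alone none of the lists given here had a called gene, where only 0.0266%, 0.0996% and 0.0133% of all genes were called in C57BL/6, SP-D-/- and BALB/c. At Af 24 h 6.4%, 1.6% and 3.92% of all genes rose in these strains, against the 9.78%, 3.11% and 8.13% that fell. Of 5 tested inducing cytokines, 4 rose in C57BL/6, 1 in SP-D-/- and 3 in BALB/c, with list medians of 0.87, 0.29 and 1.14 beside 0.00, 0.01 and -0.01 over all genes. Il6, the main inducer of hepatic acute-phase genes, rose from 2.90 to 4.83 in C57BL/6 (1.93 ± 0.52, adjusted p = 0.0085). In BALB/c it rose from 2.56 to 4.09 (1.53 ± 0.51, adjusted p = 0.0366), and by 2.41 without the arrays of doubted strain. In SP-D-/- it rose from 3.30 to 5.05 (1.75 ± 0.49, adjusted p = 0.0203). That call was lost without the arrays of high hepatocyte markers (1.49, adjusted p = 0.248). The air means of Il6 lay below the filter level in every strain, and in BALB/c the Af 24 h mean did too. The sizes of the Il6 rises are therefore less certain. Lif, another gp130 cytokine, rose by 1.08 in C57BL/6 and 1.48 in BALB/c (adjusted p = 0.0277 and 0.00245). Il11 rose by 0.87 and 1.14 in the same strains (adjusted p = 0.0426 and 0.00857). The Il11 calls were lost without the arrays of high hepatocyte markers in C57BL/6 (adjusted p = 0.0523) and without those of doubted strain in BALB/c (0.45, adjusted p = 0.38).

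Among 13 tested transcription factors and feedback inhibitors, 3 rose in C57BL/6, 4 in SP-D-/- and 3 in BALB/c at Af 24 h, and 1 fell in BALB/c. Of all genes, 6.4%, 1.6% and 3.92% rose in these strains, and 8.13% fell in BALB/c. In SP-D-/- none of the 13 was called without the arrays of high hepatocyte markers, a fit with 3 air arrays. Cebpb, a C/EBP factor of the acute-phase response, rose by 1.56 in C57BL/6 (adjusted p = 0.00123) and 1.35 in SP-D-/- (adjusted p = 0.0049, and 1.19 with adjusted p = 0.1 in that fit). Nfkb2, an NF-kB subunit, rose by 1.40, 1.00 and 0.85 in C57BL/6, SP-D-/- and BALB/c (adjusted p = 0.000401, 0.0125 and 0.0307), and was at 1.06 in SP-D-/- in that fit (adjusted p = 0.0702). Bcl3, a regulator of NF-kB, rose by 1.28, 0.93 and 1.38, and was at 0.92 in SP-D-/- in that fit (adjusted p = 0.092). Cebpa, the C/EBP factor of resting epithelium and liver, fell by 1.79 in BALB/c (adjusted p = 0.000222), but was at -0.40 without the arrays of doubted strain (adjusted p = 0.339). Of 10 tested cytokine receptors, 1 was called in C57BL/6 and 2 in BALB/c, where 16.2% and 12.1% of all genes were called. For a list of this size these counts were close to those shares. Lifr, the receptor for Lif, fell by 2.63 in C57BL/6 (adjusted p = 0.00375) and by 2.02 in BALB/c (adjusted p = 0.0243), where it was at -1.65 without the arrays of doubted strain (adjusted p = 0.0775). Il17rc rose by 1.501 in BALB/c (adjusted p = 0.00283). At Af 168 h, 1 of the transcription factors was called, Cebpb in C57BL/6, at 1.31 above air (adjusted p = 0.0268), with 1.35% of all genes called.

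Of 17 other acute-phase proteins tested at Af 24 h, 1 rose and 2 fell in C57BL/6, none rose and 6 fell in SP-D-/-, and 2 rose and 3 fell in BALB/c, with list medians of 0.18, -1.01 and -0.43. Of all genes, 6.4%, 1.6% and 3.92% rose and 9.78%, 3.11% and 8.13% fell in C57BL/6, SP-D-/- and BALB/c. The C57BL/6 counts of this list were close to those shares. Without the arrays of high hepatocyte markers 0 of 17 fell in SP-D-/-, and without those of doubted strain 0 of 17 fell in BALB/c. Cfb, complement factor B, rose by 1.41 in C57BL/6 (adjusted p = 0.00173). Hamp, the iron hormone hepcidin, fell by 2.70 in C57BL/6 (adjusted p = 0.00315). It fell by 2.16 in SP-D-/- and by 1.98 in BALB/c (adjusted p = 0.0218 and 0.0292), calls lost without the hepatocyte arrays in the first (-2.01, adjusted p = 0.186) and without the arrays of doubted strain in the second (-1.63, adjusted p = 0.187). Lbp, which carries endotoxin, fell by 1.69 in C57BL/6 (adjusted p = 0.0293) and by 1.77 in BALB/c (adjusted p = 0.0241), where it was at -0.62 without the arrays of doubted strain (adjusted p = 0.628). Fgg and Fga, fibrinogen chains of the liver, differed by -2.23 and -1.98 in SP-D-/- (adjusted p = 0.000219 and 0.00299), and by -0.91 and -0.39 without the hepatocyte arrays (adjusted p = 0.21 and 0.681). In air, Fgg and Fga were each 2.03 higher in SP-D-/- than in C57BL/6 (adjusted p = 0.00604 and 0.0299, where 0.0597% of all genes were called higher), and 0.71 and 0.44 higher without those arrays (adjusted p = 1.0 for both).

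Of 6 tested negative acute-phase proteins, which decline in the classical response, 2 were called in SP-D-/- and 1 in BALB/c at Af 24 h, all lower. In these strains 3.11% and 8.13% of all genes fell. Alb and Apoa1, also on the hepatocyte list, differed by -2.51 and -2.02 in SP-D-/- (adjusted p = 0.00769 and 0.0148), and by -0.23 and 0.036 without the hepatocyte arrays (adjusted p = 0.86 and 0.975). Trf, transferrin, differed by -2.22 in BALB/c (adjusted p = 0.00102), and by -0.80 without the arrays of doubted strain (adjusted p = 0.167).

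Of 13 tested receptors and partners of the member proteins, 1 rose and 2 fell at Af 24 h in C57BL/6, and 1 rose and 2 fell in BALB/c, where 16.2% and 12.1% of all genes were called. Counts this small in a list of 13 do not set it apart from those shares. Hmox1, which degrades haem, rose by 0.77 and 0.89 in these strains (adjusted p = 0.0281 and 0.0113). Cd36, a scavenger receptor for serum amyloid A, fell by 1.69 and 1.73 (adjusted p = 0.000925 and 0.000511), and Heph, a ferroxidase related to Cp, fell by 2.07 in BALB/c (adjusted p = 0.00892). Without the arrays of doubted strain, neither fall was called in BALB/c (-1.15 and -1.69, adjusted p = 0.0542 and 0.0982). Tlr4, a receptor for which Saa3 is a reported ligand, fell by 1.87 in C57BL/6 (adjusted p = 0.0364). Neutrophil markers, whose cells carry Lcn2 in their granules, had group means of 4.95 to 5.54 over 14 measured genes. In every group 5 to 7 of the 14 had means under the filter level. None of the 13 tested was called at Af 24 h, at Af 168 h or after ozone alone. Of all genes, 16.2%, 4.71% and 12.1% were called at Af 24 h in C57BL/6, SP-D-/- and BALB/c. At Af 168 h 1.35%, 1.35% and 1.56% were called, and after ozone 0.0266%, 0.0996% and 0.0133%. With shares so low, a list of 13 without a call says little about neutrophils at Af 168 h or after ozone. Ciliated cell genes fell at Af 24 h in all strains (5, 5 and 4 of 6 tested in C57BL/6, SP-D-/- and BALB/c), as the club and secretory genes did. Of all genes, 9.78%, 3.11% and 8.13% fell then and 6.4%, 1.6% and 3.92% rose, shares that apply to the macrophage and adipocyte counts that follow as well. Without the arrays of doubted strain 2 of 6 fell in BALB/c, and without the hepatocyte arrays 3 fell in C57BL/6 and 4 in SP-D-/-. Of 7 tested alveolar macrophage genes, 1 fell in C57BL/6, none was called in SP-D-/-, and 1 rose and 2 fell in BALB/c at that time. Of 4 tested adipocyte genes, 1 fell in each wild-type strain, and none in BALB/c without the arrays of doubted strain. The part of these cells in the Saa3 values was not tested. The beta-actin 3' minus 5' difference, a sign of RNA quality that grows with degradation, averaged 1.59, 1.88 and 1.71 in air for C57BL/6, SP-D-/- and BALB/c, and 1.72 to 3.08 in the other groups. At Af 24 h it averaged 2.84, 2.54 and 2.64 in C57BL/6, SP-D-/- and BALB/c. Saa3 at Af 24 h with that difference as a covariate was 4.53 higher in C57BL/6 and 4.89 higher in BALB/c. The pathway and marker lists were not refitted with that difference or the spike-in level as a covariate. The part of RNA quality in the list changes was therefore not tested.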

How the data were processed

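Total RNA of mouse lung was amplified with a NuGEN system and hybridized to Affymetrix HT Mouse430PM arrays, per the labels' protocols, which name a left lobe frozen in a lysis tube, while the series' design text speaks of a cell suspension. The deposited values are log2 signals that the authors had already normalized: all 89 columns hold the same sorted values. Software and background correction are not given in the sources used here, and the number of arrays limits the precision.

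Of 45141 probe sets, 28898 carry 1 gene symbol, 551 several, 15588 none, and 104 are controls. Each gene was read by its probe set with the highest mean and tested if above the 40th percentile (log2 4.45) on at least 4 arrays. In limma 3.58.1 (R 4.3.3), 1 model with 18 group means took in all 89 arrays and gave 40 comparisons, and a gene was called at a Benjamini-Hochberg adjusted p under 0.05 over 15065 genes. Intervals are 95%. The script was tested on simulated data.

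Members and lists were chosen with earlier results of these data known. Named beside the members are, per list and comparison, up to 3 called genes with the largest change, and the 5 genes most like each member over group means. The spike-in level is the mean of 18 hybridization controls. The strain index uses the 40 genes with the lowest p between BALB/c and C57BL/6 in air. Promoters are RefSeq's (GRCm38.p6), with an entry for 6 of 8 members.

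Replicate numbers are shared between groups, and the labels do not explain them. Same-numbered arrays deviated together in every pair (4 of 4, mean r 0.380, against -0.066 for other numbers) only between the C57BL/6 groups with ozone and with air at Af 168 h, where the block called no member either.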

Additional observations from a re-analysis of the deposited data

Results flagged for a closer look

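An array was singled out where its distance to the nearest other array of its group, as a share of the group's range, passed Dixon's 95% value. This happened for 15 of 119 sets of a group and a member, where chance gives about 1 in 20. High arrays were Saa3 in replicate 6 of C57BL/6 Af 168 h with air (10.79, others 8.45 to 8.65), Saa2 in replicate 3 of C57BL/6 Af 24 h (7.14, others 4.49 to 4.82), in replicate 4 of C57BL/6 Af 96 h with ozone (4.11, others 3.30 to 3.51) and in replicate 6 of SP-D-/- Af 24 h (7.04, others 4.35 to 5.28), and Hp in replicate 6 of SP-D-/- Af 96 h with ozone (11.05, others 10.64 to 10.71). Orm2 was high in replicate 2 of C57BL/6 Af 96 h with ozone (3.36), in replicate 4 of SP-D-/- air (3.39) and in replicate 3 of SP-D-/- Af 168 h with ozone (4.17), and Cp in replicate 5 of C57BL/6 air (9.28) and replicate 5 of SP-D-/- ozone (9.63).

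Low arrays were Lcn2 in replicate 5 of C57BL/6 air (8.57), replicate 1 of SP-D-/- Af 24 h (8.15) and replicate 1 of BALB/c Af 96 h with ozone (9.20). Hp was low in replicate 5 of BALB/c Af 24 h (6.83, others 9.24 to 9.96), and Cp in replicate 5 of C57BL/6 Af 168 h with ozone (6.38, others 9.18 to 9.65). The last 2 arrays are of doubted strain. Replicate 4 of SP-D-/- air also had the highest hepatocyte mean of all arrays, 8.79.

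The Saa2 response to Af 96 h with ozone differed between strains, by a test of the difference itself: it was 2.59 ± 0.82 (SE) higher in SP-D-/- than in C57BL/6 (limma, adjusted p = 0.018), in a comparison where 27.4% of all genes were called. It was not called with the spike-in level as a covariate (0.83, adjusted p = 0.761), without the arrays of high hepatocyte markers (1.85, adjusted p = 0.0934) or without replicate 5 of SP-D-/- ozone (2.34, adjusted p = 0.0621).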

How the results depend on the processing

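Settings added after seeing the data were the spike-in level and actin difference together, without the arrays of doubted strain, and leaving out the 4 arrays of high hepatocyte markers; the gene lists were also recounted without these and without the arrays of doubted strain. Counts are of member and strain pairs called. Af 24 h against air (7) became 11 with the spike-in level, 12 with it and without arrays of doubted strain, and 11 with the actin difference added. Af 96 h with ozone against ozone (3) became 1 with the spike-in level, 1 with the actin difference, and 0 with doubted arrays out plus the spike-in level, with both covariates, or without the hepatocyte arrays. SP-D-/- against C57BL/6 (1) became 3 from only the groups compared, 3 with the spike-in level and 2 with doubted arrays out under either set of covariates; BALB/c against C57BL/6 (1) became 2 without doubted arrays or with the spike-in level, and 2 with both. Ozone against air (2) became 1 without the hepatocyte arrays, ozone at Af 168 h (0) became 1 with no filter (Orm2 in BALB/c), and Af 168 h against Af 24 h (3) became 1 from only its groups. Response differences (1) became 2 from only their groups and 0 with either covariate, with both, or without the hepatocyte arrays.

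Saa3 after ozone in C57BL/6 was 2.66 without the hepatocyte arrays and no longer called. Saa3 at Af 24 h in SP-D-/- became called with cyclic loess (1.58), the spike-in level (1.82), that without doubted arrays (1.81) and both covariates (1.73). At Af 96 h, Saa3 in C57BL/6 became called with the spike-in level (1.74), and in BALB/c it turned from -0.14 to 0.15, 0.14 and 0.022 under the spike-in settings, uncalled throughout. The late Saa3 fall in BALB/c was not called from only its groups (-2.38, adjusted p = 0.071). Lcn2 at Af 24 h in BALB/c turned from -0.76 to 1.45 without doubted arrays, 1.60 with the spike-in level too and 2.08 with both covariates, and its response difference at Af 96 h in SP-D-/- turned to -0.36, -0.083 and -0.48 under the spike-in settings. The cause was not tested.

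Leaving out 1 array at a time gave 1 to 3 calls for ozone, 0 to 2 for BALB/c against C57BL/6 and 0 to 3 for response differences. Saa3 then ran from 4.002 to 4.85 for ozone in BALB/c, from -0.56 to 0.29 at Af 96 h in BALB/c and from -1.31 to 0.23 for the late change in C57BL/6. Lcn2 at Af 24 h in BALB/c ran from -1.34 to 0.29. The replicate number as a block changed 1 call among the members, Lcn2 at Af 96 h in C57BL/6 (-1.52, adjusted p = 0.0352), and left Saa3 after ozone in C57BL/6 at 3.07. Called under every setting run, single arrays left out included, were the Saa3 rises at Af 24 h and Af 168 h in both wild-type strains, Saa3 in SP-D-/- against C57BL/6 air, Saa1 at Af 24 h in C57BL/6, the Hp falls at Af 24 h in C57BL/6 and SP-D-/-, and the late Hp rise in SP-D-/-. Signals below the filter level (Saa1, Orm2) are the least certain.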
